A study of Mus musculus with 6 samples.

Results

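The genes described here make and control sterols and fatty acids. They were 38 genes picked by name from a table of 55421 mouse genes, all 38 were present, and all 38 were among the 18375 genes that had enough counts to be tested. Levels were measured by bulk RNA sequencing in leukemia cells from mouse bone marrow driven by AE9a, a truncated AML1-ETO fusion that causes acute myeloid leukemia in mice. A retrovirus with a GFP marker had brought it into c-Kit+ blood stem and progenitor cells of C57BL/6 donors. The donors were wild type (3 libraries, AE9a-Ddit4+/+) or Ddit4 knockout mice (3 libraries, AE9a-Ddit4-/-), and both groups carried AE9a and had been passed through irradiated C57BL/6 recipients. Ddit4 encodes an inhibitor of the mTORC1 kinase that is induced by stress. The labels also mention culture in IMDM with 10% FBS. They do not say whether the libraries of a group came from separate mice or separate leukemias. The p values here thus measure the spread between libraries, which may be technical. In the paper, few primary recipients of AE9a-Ddit4-/- cells developed leukemia during follow-up, against most recipients of AE9a-Ddit4+/+ cells. The 3 AE9a-Ddit4-/- libraries may therefore share a primary leukemia, and the number of leukemias behind them is not given. The donors were 6 to 8 weeks old. Which part of Ddit4 the knockout allele lacks is not given in the sources used here.

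Cells build cholesterol from acetyl-CoA through the mevalonate steps, which end in farnesyl diphosphate, and then through squalene and lanosterol. The genes of these enzymes are switched on together by SREBP2, a membrane-bound factor that SCAP carries out of the endoplasmic reticulum when sterols are scarce and that INSIG proteins hold back when sterols are plentiful. SREBP1 and the oxysterol receptors LXR drive fatty acid synthesis and desaturation, and LXR also drives cholesterol export. In blood cells these lipids feed membrane growth, and farnesyl diphosphate from the mevalonate steps also feeds protein prenylation.

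Promoters were looked up to show what the enzymes that share this control look like in sequence, beside fatty acid genes that had the largest changes. RefSeq start sites on GRCm38.p6 gave windows of 300 bases, from 250 before to 50 after the start, for 30 of the 38 genes. There was no window for Fdps, Fdft1, Sqle, Stard4, Scd1, Scd2, Fads1 and Abcg1. Idi1 (chr13:8885356-8885655), Mvk (chr5:114444019-114444318), Lss (chr10:76531355-76531654), Hmgcs1 (chr13:119690101-119690400) and Elovl6 (chr3:129532136-129532435) lie on the plus strand, and Fads2 (chr19:10101454-10101753) lies on the minus strand. Each window is written 5′ to 3′ along its gene, and capitals mark CCAAT or its other strand ATTGG, and in Hmgcs1 also a match to TCACNCCAC, an SREBP site written with 1 open position.
Idi1: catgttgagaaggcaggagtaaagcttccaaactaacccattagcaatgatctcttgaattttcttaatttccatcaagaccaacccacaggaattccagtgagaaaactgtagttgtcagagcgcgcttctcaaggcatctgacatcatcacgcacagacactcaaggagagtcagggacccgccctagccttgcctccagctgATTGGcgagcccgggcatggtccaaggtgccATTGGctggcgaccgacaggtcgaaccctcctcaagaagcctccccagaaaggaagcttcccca
Mvk: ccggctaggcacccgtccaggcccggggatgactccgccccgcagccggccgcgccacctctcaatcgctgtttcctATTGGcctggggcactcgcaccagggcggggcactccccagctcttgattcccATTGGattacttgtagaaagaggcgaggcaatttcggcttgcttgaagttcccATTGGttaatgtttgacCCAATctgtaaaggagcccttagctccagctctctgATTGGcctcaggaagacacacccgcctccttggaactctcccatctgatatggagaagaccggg
Lss: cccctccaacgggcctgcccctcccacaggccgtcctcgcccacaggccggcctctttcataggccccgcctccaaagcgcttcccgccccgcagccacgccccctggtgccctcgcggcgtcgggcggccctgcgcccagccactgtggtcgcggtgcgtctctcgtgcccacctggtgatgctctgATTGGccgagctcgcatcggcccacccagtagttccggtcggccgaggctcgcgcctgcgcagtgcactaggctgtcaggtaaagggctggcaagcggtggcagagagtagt
Hmgcs1: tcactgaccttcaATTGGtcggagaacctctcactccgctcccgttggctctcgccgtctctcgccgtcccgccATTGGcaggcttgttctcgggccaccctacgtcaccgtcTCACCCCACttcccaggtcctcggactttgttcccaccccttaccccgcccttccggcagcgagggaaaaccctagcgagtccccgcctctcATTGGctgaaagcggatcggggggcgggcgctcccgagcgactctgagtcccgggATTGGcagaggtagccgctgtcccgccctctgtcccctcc
Elovl6: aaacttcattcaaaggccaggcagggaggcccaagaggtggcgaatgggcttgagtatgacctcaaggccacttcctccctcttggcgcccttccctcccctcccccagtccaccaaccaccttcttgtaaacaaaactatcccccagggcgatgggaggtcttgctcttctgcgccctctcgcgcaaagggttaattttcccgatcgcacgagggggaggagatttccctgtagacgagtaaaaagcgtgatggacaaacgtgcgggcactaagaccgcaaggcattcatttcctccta
Fads2: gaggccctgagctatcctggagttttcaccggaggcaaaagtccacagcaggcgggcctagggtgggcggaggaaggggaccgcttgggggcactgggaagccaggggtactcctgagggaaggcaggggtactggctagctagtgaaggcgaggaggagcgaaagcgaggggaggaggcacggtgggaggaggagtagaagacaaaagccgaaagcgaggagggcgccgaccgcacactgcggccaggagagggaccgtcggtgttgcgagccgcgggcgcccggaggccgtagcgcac
CCAAT, the letters read by the factor NF-Y, was found on either strand in 23 of the 39 windows of these genes (59.0%), against 37.4% of all 32851 windows of the same length. It was present for 14 of the 15 sterol synthesis enzymes with a window, Acat2 being the other. Mvk held 5 copies and Hmgcs1 held 4, while the windows of Elovl6 and Fads2 held none. The letters did not follow the direction of change given below. Hsd17b7 (3 copies), Tm7sf2 (1) and Srebf2 (1) were higher in AE9a-Ddit4-/- cells. Acaca and Scap, with none, were lower, and Fasn, with 3, did not pass. TCACNCCAC was found in 1 window, that of Hmgcs1 (2.56% of the windows, against 1.24% of all), and does not overlap the other letters searched there. CACGTG, an E-box, was found in 7 windows (17.9%, against 7.15% of all), and the DR4 form of the LXR element was found in none and in 0.0457% of all windows. These matches describe letters and say nothing about binding in these cells.

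The 6 libraries held 62141558 to 72717681 counts, and the 38 genes took 0.209% to 0.295% of them. Ddit4 was at 228, 161 and 342 CPM (counts per 1e+06 of the TMM-scaled library total) in AE9a-Ddit4+/+ libraries 1 to 3, and at 84.9, 77.7 and 85.9 CPM in AE9a-Ddit4-/- libraries 1 to 3 (log2 fold change -1.56, SE 0.28, adjusted p = 0.00635, edgeR quasi-likelihood test with Benjamini-Hochberg adjustment, as for every adjusted p below). By western blot, the paper reports no DDIT4 protein in AE9a-Ddit4-/- leukemia cells, so the remaining RNA is not a measure of protein. The genotypes also differed in which cells' markers were present. Erythroid markers summed to 7682 to 14747 CPM in AE9a-Ddit4+/+ and 358 to 885 CPM in AE9a-Ddit4-/- libraries (11 of 12 lower), and neutrophil markers to 7102 to 11483 and 1848 to 5064 CPM (5 of 12 lower). Megakaryocyte and platelet markers summed to 119 to 194 CPM in AE9a-Ddit4+/+ and 2404 to 3313 CPM in AE9a-Ddit4-/- libraries (8 of 12 higher, 1 lower), and those of monocytes and macrophages to 89.7 to 158 and 164 to 415 CPM (4 of 11 higher). B cell markers went from 1.05 to 5.25 CPM up to 69.5 to 136 CPM (7 of 8 tested higher), T and NK cell markers from 12.1 to 51.5 CPM up to 86.8 to 124 CPM (8 of 10 higher), and stromal and endothelial markers from 6.98 to 12.4 CPM up to 321 to 332 CPM (5 of 9 higher). Most of the last sum came from Pdgfrb and Pecam1, which averaged 154 and 137 CPM in AE9a-Ddit4-/- libraries. Cxcl12, Cdh5 and Kdr were also higher, while the stromal genes Col1a1, Col1a2, Col3a1 and Lepr did not pass. Cell cycle genes summed to 3785 to 6433 CPM in AE9a-Ddit4+/+ and 1307 to 2821 CPM in AE9a-Ddit4-/- libraries, with 7 of 20 lower. Hepatocyte and adipocyte markers summed to 0.899 to 8.04 CPM in AE9a-Ddit4+/+ and 9.17 to 12.7 CPM in AE9a-Ddit4-/- libraries. Of the 8, 2 could be tested, 1 higher and 1 lower, and Alb, Ttr and Serpina1a were at 0 in all 6 libraries. Kit, the marker of the cells that were infected, stood at 24.7 ± 8.92 CPM in AE9a-Ddit4+/+ and 411 ± 103 CPM in AE9a-Ddit4-/- cells (SD, n = 3 each). In the same order, Ptprc averaged 108 and 578 CPM (adjusted p = 0.00416). Runx1t1, the mouse gene of ETO, averaged 11.9 and 139 CPM (adjusted p = 0.00295). Whether its counts include reads of the AE9a fusion is not given in the sources used here. The Y-linked gene Ddx3y averaged 0.0665 and 111 CPM and Xist 827 and 70.8 CPM, so sex and genotype cannot be told apart. These genes, from Kit on, were picked after their values were seen. Mitochondrial genes took 5.03% to 7.90% of the counts in AE9a-Ddit4+/+ and 11.3% to 16.4% in AE9a-Ddit4-/- libraries. The part of these differences in the results below was not tested, and in bulk RNA fewer cells of a type cannot be told apart from less RNA per cell.

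Loss of Ddit4 went with lower RNA for much of the cholesterol pathway and with higher RNA for an enzyme that lengthens fatty acids (Elovl6) and for 3 that desaturate them (Scd1, Fads1 and Fads2). Of the 38 genes, 7 (18.4%) were higher and 11 (28.9%) were lower in AE9a-Ddit4-/- cells at an adjusted p below 0.05, and 20 did not pass. Of all genes tested, 30.1% passed, with 19.4% higher and 10.7% lower. The share of higher genes was thus near that of all genes and the share of lower genes above it. Low-count genes weigh on those shares. Among the 8218 genes with a mean log2 CPM above 4, more were lower (1400) than higher (1243). The median log2 fold change was -0.34 over the 38 genes and 0.04 over all genes tested, or -0.17 over genes with a mean log2 CPM above 4. The libraries of the 2 genotypes did not overlap for 20 of the 38 genes (52.6%, against 50.1% of all genes), with AE9a-Ddit4-/- above in 9 (27.9% of all genes) and below in 11 (22.2% of all genes). Among the 8218 genes, AE9a-Ddit4-/- was above without overlap in 1750 and below in 2529. By this count without overlap, the share below was no larger for the 38 genes than for genes at such levels. By adjusted p the share of lower genes was larger, 11 of the 38 against 1400 of the 8218. Some of the 38 genes, such as Mvk, lie below such levels. Of the 18 genes that passed, 15 differed by 2-fold or more.

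**Figure D1:**
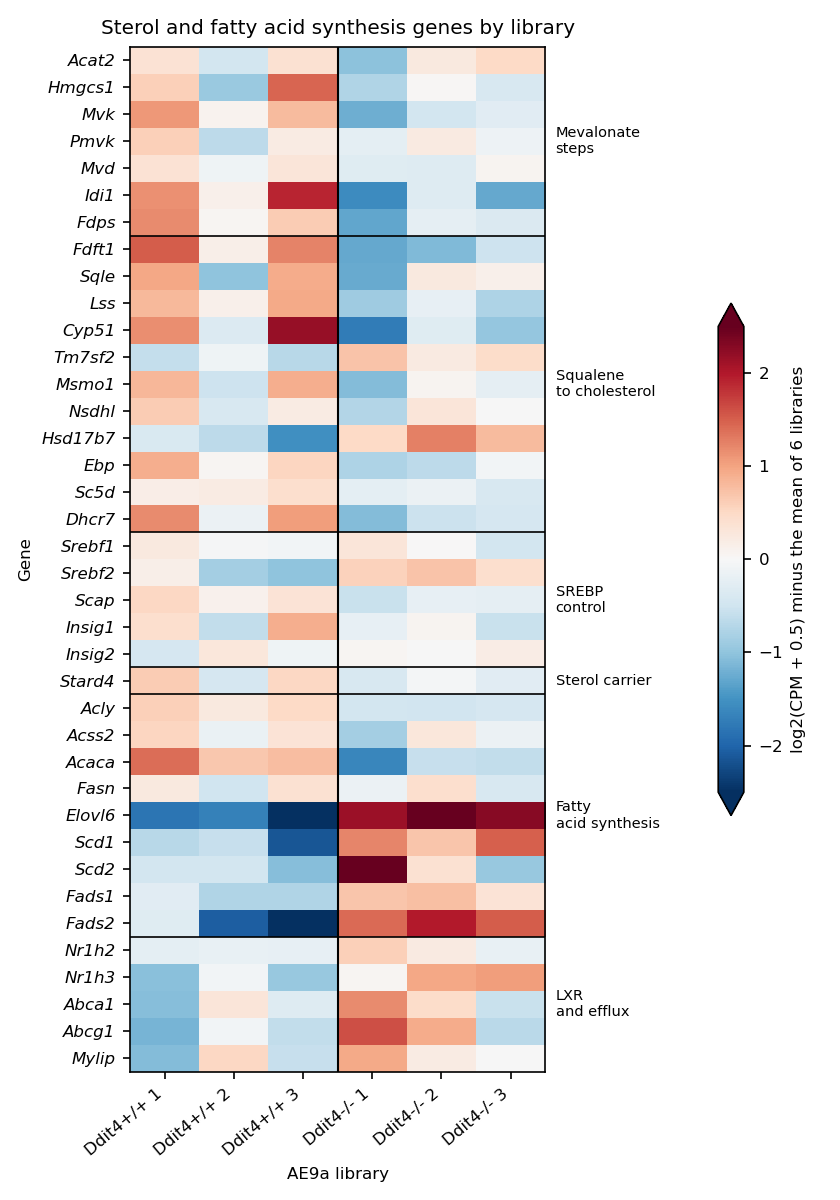
Level of each of the 38 genes (rows, grouped by role) in each of the 6 libraries (columns), as log2(CPM + 0.5) minus the gene's mean over the libraries; colours end at the values marked on the scale, and red is above the mean. Most sterol enzymes are blue in AE9a-Ddit4-/- libraries while Elovl6, Scd1, Fads1 and Fads2 are red, and AE9a-Ddit4+/+ library 2 is paler or bluer than libraries 1 and 3 over most of the sterol enzymes.

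The mevalonate steps, from acetyl-CoA to farnesyl diphosphate, held 7 of the genes, of which 3 were lower, none was higher and all 7 had a negative log2 fold change (median -1.02). Idi1, which turns isopentenyl diphosphate into its reactive isomer, was at 70.1, 34.6 and 119 CPM in AE9a-Ddit4+/+ libraries 1 to 3 and at 10.3, 25.1 and 12.7 CPM in AE9a-Ddit4-/- libraries 1 to 3. Its lowest wild-type library was above its highest knockout library, and it was 4.64-fold lower without Ddit4 (log2 fold change -2.21, SE 0.52, adjusted p = 0.0168). Mvk, mevalonate kinase, was at 14.6, 7.09 and 11.9 CPM against 2.59, 4.67 and 5.37 CPM. Again no knockout library reached the wild-type range (log2 fold change -1.41, SE 0.43, adjusted p = 0.0422). Fdps, which makes farnesyl diphosphate, was at 74.1, 33.2 and 50.6 CPM against 12.8, 27.7 and 25.1 CPM. The groups stood apart by the small gap between AE9a-Ddit4+/+ library 2 and AE9a-Ddit4-/- library 2 (log2 fold change -1.27, SE 0.39, adjusted p = 0.0450), and 26.7% of the exon length of Fdps is shared with Gm43738 on the same strand, which can split its reads.

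Hmgcs1, HMG-CoA synthase, whose promoter is printed above, was at 74.5, 25.5 and 135 CPM in AE9a-Ddit4+/+ libraries and at 29.0, 50.3 and 36.9 CPM in AE9a-Ddit4-/- libraries. AE9a-Ddit4+/+ library 2 was the lowest of the 6, the groups overlapped, and the gene did not pass (log2 fold change -1.02, SE 0.54, adjusted p = 0.196). Acat2, which joins acetyl-CoA units, had a log2 fold change of -0.11 (adjusted p = 0.878). Pmvk and Mvd, the kinase and decarboxylase that follow Mvk, had -0.18 (adjusted p = 0.755) and -0.39 (adjusted p = 0.349). For none of these 4 did the groups separate.

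The branch from squalene to cholesterol held 11 genes, of which 5 were lower and 2 were higher (median log2 fold change -0.90). Fdft1, squalene synthase, the first enzyme committed to sterols, was at 45.0, 17.3 and 37.3 CPM in AE9a-Ddit4+/+ libraries and at 6.04, 6.93 and 10.7 CPM in AE9a-Ddit4-/- libraries. All wild-type libraries were above all knockout libraries, a 4.21-fold difference (log2 fold change -2.08, SE 0.42, adjusted p = 0.00930). Ctsb, which overlaps 18.3% of its exon length on the opposite strand, did not pass (log2 fold change -0.15, adjusted p = 0.628), and whether the counting used strand is not given in the sources used here.

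Lss, lanosterol synthase, which closes the sterol rings, was at 44.0, 27.2 and 48.4 CPM against 13.3, 21.5 and 14.5 CPM. The groups did not overlap (log2 fold change -1.28, SE 0.31, adjusted p = 0.0188). Cyp51, lanosterol demethylase, was at 89.5, 31.1 and 183 CPM against 11.6, 32.4 and 20.2 CPM. It had the most negative log2 fold change of the 38 genes (-2.24, SE 0.65, adjusted p = 0.0358), although AE9a-Ddit4-/- library 2 was just above AE9a-Ddit4+/+ library 2. Without AE9a-Ddit4+/+ library 3 its log2 fold change was -1.50 and it no longer passed.

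Ebp, the sterol isomerase, was at 46.8, 25.7 and 36.2 CPM against 14.3, 15.5 and 23.4 CPM. The highest knockout library came close to the lowest wild-type library without reaching it (log2 fold change -1.03, SE 0.31, adjusted p = 0.0417). Dhcr7, the reductase that turns 7-dehydrocholesterol into cholesterol, was at 29.0, 11.2 and 26.4 CPM against 5.62, 8.44 and 9.23 CPM. All knockout libraries were lower than all wild-type libraries (log2 fold change -1.52, SE 0.41, adjusted p = 0.0296).

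Hsd17b7 and Tm7sf2 went the other way. Hsd17b7, the 3-ketosteroid reductase of the C4 demethylation complex, was at 5.10, 4.14 and 2.03 CPM in AE9a-Ddit4+/+ libraries and at 9.72, 17.0 and 12.1 CPM in AE9a-Ddit4-/- libraries. Every knockout library was higher, by 3.45-fold in the fit (log2 fold change 1.79, SE 0.44, adjusted p = 0.0199). Tm7sf2, a C14 sterol reductase, was at 7.27, 10.5 and 6.81 CPM against 18.7, 13.3 and 15.7 CPM. The groups did not overlap (log2 fold change 0.96, SE 0.30, adjusted p = 0.0471), and 12.1% of its exon length is shared with Vps51 on the same strand, which itself had a log2 fold change of -0.11 (adjusted p = 0.701). Hsd17b7 lies on chromosome 1, where the median log2 fold change of genes with a mean above 16 CPM was 0.40 above that of all genes at such levels. On chromosome 19, which holds Tm7sf2, this difference was -0.10.

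The remaining 4 genes of the branch did not pass. Sqle, squalene epoxidase, was at 54.0, 13.3 and 53.0 CPM against 11.2, 32.6 and 29.9 CPM. Its groups overlapped through AE9a-Ddit4+/+ library 2 (log2 fold change -0.71, adjusted p = 0.400). Msmo1 and Nsdhl, which remove the C4 methyl groups, had log2 fold changes of -0.90 (adjusted p = 0.182) and -0.30 (adjusted p = 0.600). Sc5d, the C5 desaturase, was at 24.0, 24.4 and 28.8 CPM against 17.8, 19.1 and 15.9 CPM, without overlap but with an adjusted p of 0.0950 (log2 fold change -0.55).

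Over the 18 enzymes of both stretches, 8 were lower, 2 were higher and the 8 that did not pass all had negative log2 fold changes, from -1.02 to -0.11 (adjusted p 0.0950 to 0.878). Their summed level was 674, 312 and 826 CPM in AE9a-Ddit4+/+ libraries (604 ± 264, SD, n = 3) and 201, 343 and 296 CPM in AE9a-Ddit4-/- libraries (280 ± 72.5, SD, n = 3). The groups overlapped because AE9a-Ddit4+/+ library 2, the lowest wild-type library for 15 of the 18, summed to less than AE9a-Ddit4-/- library 2. AE9a-Ddit4-/- library 1 was the lowest knockout library for 15 of the 18. The same libraries were the lowest of their group for the summed cell cycle genes, at 6433, 3785 and 5362 CPM in AE9a-Ddit4+/+ and 1307, 2787 and 2821 CPM in AE9a-Ddit4-/- libraries, whose part in the result was not tested. Even so, library 2 of AE9a-Ddit4+/+ was above every knockout library for 7 of the 8 enzymes that were lower, Cyp51 being the exception. The number of lower enzymes was 10 without AE9a-Ddit4+/+ library 2, 2 without library 1 and 1 without library 3 of that group, and 1, 4 and 2 without AE9a-Ddit4-/- library 1, 2 or 3. Fdft1 was among them in each of these fits, while Hsd17b7 lost its call without AE9a-Ddit4-/- library 2 or 3 and Tm7sf2 lost it without any library other than AE9a-Ddit4+/+ library 2.

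**Figure D2:**
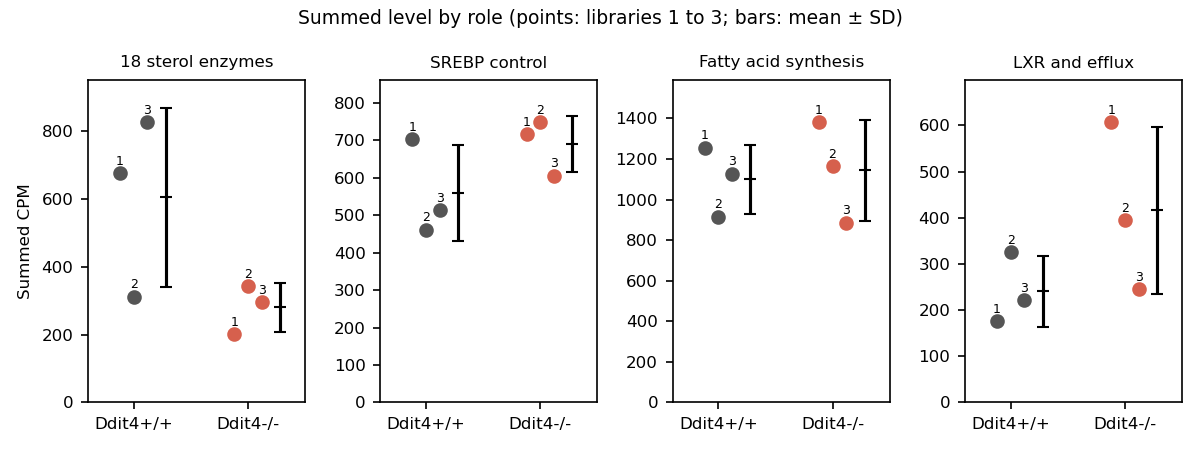
Summed CPM of the 18 sterol enzymes, the 5 SREBP control genes, the 9 fatty acid synthesis genes and the 5 LXR and efflux genes, each on its own axis from 0, with a numbered point for each library and a bar for the mean ± SD of 3. The sterol enzymes average 604 and 280 CPM with AE9a-Ddit4+/+ library 2 at 312 inside the knockout range, and the fatty acid genes average 1099 and 1144 CPM.

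Among the genes that control SREBP, Srebf2 and Scap passed in opposite directions. Srebf2, which encodes SREBP2, was at 294, 147 and 132 CPM in AE9a-Ddit4+/+ libraries and at 399, 438 and 355 CPM in AE9a-Ddit4-/- libraries. Every knockout library was higher (2.08-fold, log2 fold change 1.06, SE 0.32, adjusted p = 0.0418), and AE9a-Ddit4+/+ library 1 stood above the other wild-type libraries. It lies on chromosome 15, where the median log2 fold change of genes with a mean above 16 CPM was 0.56 above that of all genes at such levels, and so does Sqle, which did not pass. Scap, the SREBP escort, was at 152, 115 and 135 CPM against 72.3, 92.3 and 91.4 CPM. No knockout library reached the wild-type range (log2 fold change -0.65, SE 0.19, adjusted p = 0.0390).

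Srebf1, which encodes SREBP1, was at 188, 155 and 150 CPM against 194, 159 and 115 CPM, with overlapping groups (log2 fold change -0.07, SE 0.23, adjusted p = 0.834). Insig1, itself a target of SREBP2, was at 62.1, 29.8 and 86.9 CPM against 39.8, 48.2 and 31.0 CPM. AE9a-Ddit4+/+ library 2 was again the lowest of the 6 (log2 fold change -0.59, adjusted p = 0.287). Insig2 had a log2 fold change of 0.13 (adjusted p = 0.759). Stard4, which carries cholesterol between membranes, was at 69.2, 33.1 and 64.0 CPM against 33.4, 43.0 and 36.3 CPM and did not pass (log2 fold change -0.56, adjusted p = 0.197). Srebf2 passed with AE9a-Ddit4+/+ library 1 left out and with none of the other 5 left out in turn (adjusted p up to 0.122 over all settings), and Scap passed with AE9a-Ddit4+/+ library 2 left out and with none of the others (up to 0.129).

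Of the 9 fatty acid genes, 4 were higher and 2 were lower. Acly and Acaca, which make and load the 2-carbon units, were lower, and Elovl6, Scd1, Fads1 and Fads2, which lengthen and desaturate the chain, were higher. Other genes of these steps, named after their values were seen, went both with and against that split. Of the other elongases, Elovl1 (log2 fold change -1.05, adjusted p = 0.0156) and Elovl5 (-1.22, adjusted p = 0.0184) were lower and Elovl7 was higher (1.72, adjusted p = 0.0170). Hacd3, a dehydratase of chain lengthening, was lower (-0.96, adjusted p = 0.0122), and Acacb, the other acetyl-CoA carboxylase, was higher (2.49, adjusted p = 0.0413). Acly, ATP citrate lyase, which supplies cytosolic acetyl-CoA, was at 723, 564 and 677 CPM in AE9a-Ddit4+/+ libraries and at 348, 341 and 356 CPM in AE9a-Ddit4-/- libraries. The groups were far apart, with little spread among the knockout libraries (log2 fold change -0.91, SE 0.17, adjusted p = 0.00702). Acaca, acetyl-CoA carboxylase 1, which makes malonyl-CoA, was at 76.1, 45.8 and 49.5 CPM against 8.98, 19.0 and 18.6 CPM. All knockout libraries were lower (3.68-fold, log2 fold change -1.88, SE 0.36, adjusted p = 0.00772). Fasn, fatty acid synthase, was at 227, 134 and 248 CPM against 172, 257 and 144 CPM. Its groups lay over each other (log2 fold change -0.09, SE 0.31, adjusted p = 0.847). Acss2, which makes acetyl-CoA from acetate, did not pass either (log2 fold change -0.44, adjusted p = 0.356).

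Elovl6, which lengthens palmitate to stearate, had the largest change of the 38 genes. It was at 3.48, 3.88 and 0.464 CPM in AE9a-Ddit4+/+ libraries and at 62.0, 113 and 67.7 CPM in AE9a-Ddit4-/- libraries. The lowest knockout library was well above the highest wild-type library (31.0-fold, log2 fold change 4.96, SE 0.76, adjusted p = 0.00349). Scd1, stearoyl-CoA desaturase 1, which puts in the first double bond, was at 7.15, 7.82 and 2.32 CPM against 28.3, 19.6 and 34.5 CPM. Here too the groups were apart (4.77-fold, log2 fold change 2.25, SE 0.49, adjusted p = 0.0125). Scd2, its close relative, was at 67.2, 67.6 and 44.1 CPM against 540, 122 and 47.5 CPM. AE9a-Ddit4-/- library 1 alone was far higher and library 3 lay among the wild-type libraries (log2 fold change 1.99, SE 0.79, adjusted p = 0.0962). Without AE9a-Ddit4-/- library 1 the log2 fold change of Scd2 was 0.51, and without library 3 it passed.

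Fads2 and Fads1 encode the D6 and D5 desaturases that make polyunsaturated fatty acids. Fads2 was at 21.7, 6.03 and 4.12 CPM in AE9a-Ddit4+/+ libraries and at 72.2, 107 and 77.6 CPM in AE9a-Ddit4-/- libraries. AE9a-Ddit4+/+ library 1 stood above the other wild-type libraries and below every knockout library (8.07-fold, log2 fold change 3.01, SE 0.63, adjusted p = 0.0107). Without that library the log2 fold change of Fads2 was 4.08. Fads1 was at 64.2, 45.9 and 45.9 CPM against 127, 133 and 99.5 CPM. It was 2.30-fold higher, without overlap (log2 fold change 1.20, SE 0.22, adjusted p = 0.00633). The 4 higher genes of this group passed with any 1 library left out, as did Acly and Acaca.

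**Figure D3:**
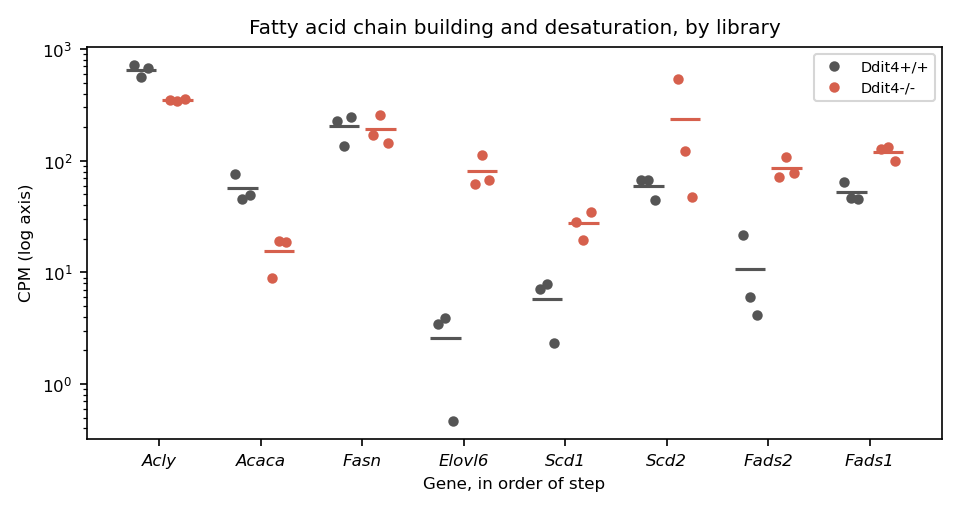
CPM (log axis) of 8 fatty acid genes in the order of their steps, with a point for each of 3 AE9a-Ddit4+/+ (dark) and 3 AE9a-Ddit4-/- (red) libraries and a line at the mean. Acly and Acaca sit lower in the knockout libraries, Fasn overlaps, and Elovl6, Scd1, Fads2 and Fads1 sit higher, while Scd2 runs from 47.5 to 540 CPM in the knockout.

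Fads2 (chr19:10062765-10101746, minus strand) and Fads1 (chr19:10182888-10196877, plus strand) are neighbours on GRCm38, as are Scd2 (chr19:44293674-44306864, plus) and Scd1 (chr19:44394455-44407879, minus). Genes beside them were read off after the results of the pathway were seen. Around Fads2, Rab3il1 (log2 fold change 3.37, adjusted p = 0.000842), Fads3 (4.62, adjusted p = 0.00146) and Myrf (4.08, adjusted p = 0.0255) were higher. Fth1 (-0.57, adjusted p = 0.0464) and Incenp (-0.94, adjusted p = 0.00822) were lower, and Fen1 did not pass (112 and 55.7 CPM, adjusted p = 0.127). Beside Scd1, Scd3 was higher from a very low level (0.0206 to 0.697 CPM, adjusted p = 0.0166) and Scd4 was at 0.520 and 0.0363 CPM (adjusted p = 0.0599). Pkd2l1 and Sec31b, further along, were higher (0 and 1.35 CPM, adjusted p = 0.00584, and 0.894 and 4.31 CPM, adjusted p = 0.0158). Genes that passed went both ways beside Fads2, and all of those beside Scd1 were higher.

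Genes of LXR signalling and cholesterol export had positive log2 fold changes in 5 of 5 cases (median 0.79) and none passed. Abcg1, which exports cholesterol to HDL, was at 24.3, 52.6 and 35.7 CPM in AE9a-Ddit4+/+ libraries and at 171, 105 and 34.3 CPM in AE9a-Ddit4-/- libraries. Knockout library 3 lay among the wild-type libraries (log2 fold change 1.46, SE 0.55, adjusted p = 0.0856). Abca1, which loads cholesterol onto apolipoprotein A1, was at 24.9, 64.5 and 41.4 CPM against 120, 71.7 and 35.5 CPM. It had the same low library in the knockout (log2 fold change 0.79, adjusted p = 0.260). Mylip, an LXR target that marks lipoprotein receptors for destruction, was at 38.6, 117 and 54.9 CPM against 159, 95.0 and 82.0 CPM (log2 fold change 0.67, adjusted p = 0.289).

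Nr1h2, which encodes LXR beta, was at 87.6, 91.1 and 89.6 CPM against 158, 121 and 91.8 CPM. Its wild-type libraries were nearly equal and the knockout libraries were spread above them (log2 fold change 0.47, adjusted p = 0.155). Nr1h3, which encodes LXR alpha, was at 0.0950, 0.663 and 0.139 CPM against 0.771, 1.91 and 2.03 CPM, levels that rest on few counts (log2 fold change 2.38, SE 0.85, adjusted p = 0.0704). AE9a-Ddit4+/+ library 2, low for the sterol enzymes, was the highest wild-type library for all 5 of these genes. AE9a-Ddit4-/- library 1, low for the sterol enzymes, was the highest knockout library for 4 of the 5, and library 3 was the lowest for 4 of the 5. Without AE9a-Ddit4+/+ library 2, 2 of the 5 passed as higher, and without AE9a-Ddit4-/- library 3, 1 did.

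**Figure D4:**
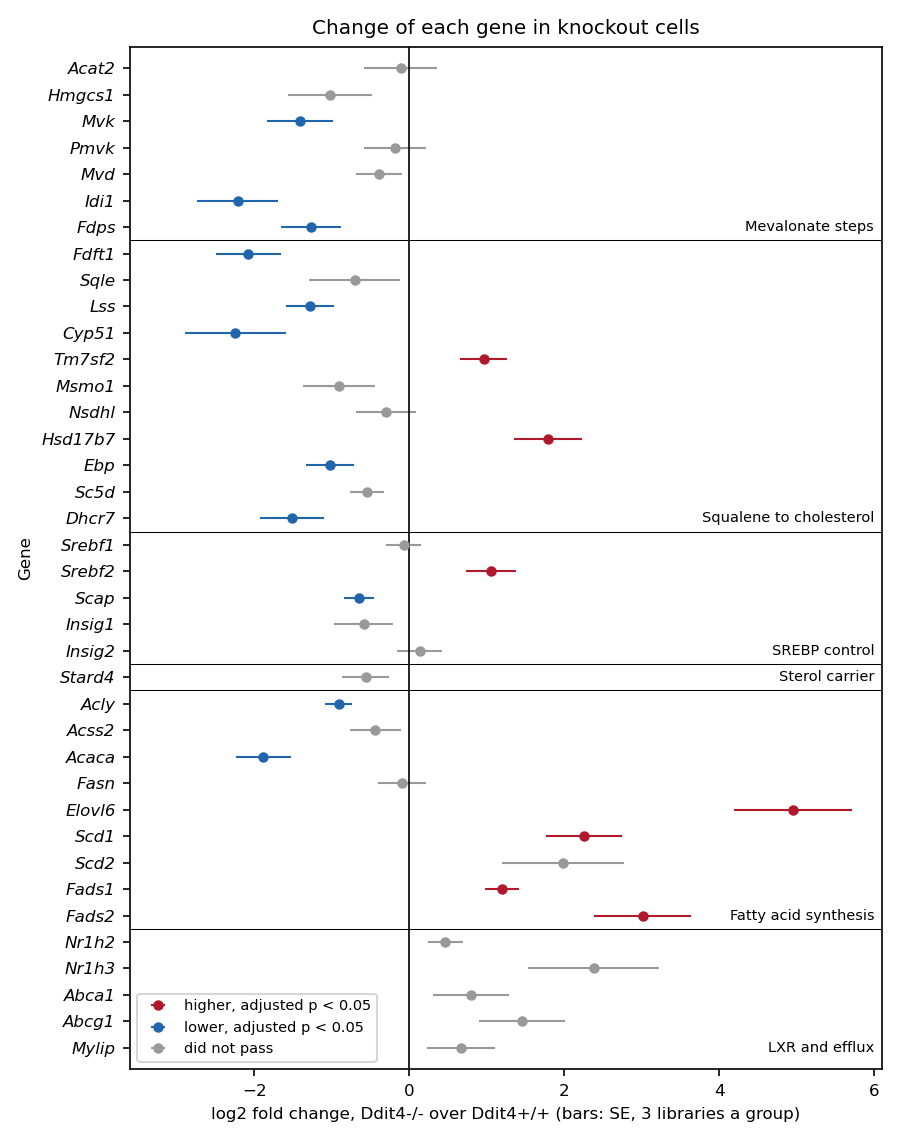
Log2 fold change of AE9a-Ddit4-/- over AE9a-Ddit4+/+ for each of the 38 genes, with bars for the SE, in red where higher and blue where lower at an adjusted p below 0.05 and grey otherwise. Values run from -2.24 (Cyp51) to 4.96 (Elovl6), all 5 LXR and efflux genes lie right of 0, and 16 of the 18 sterol enzymes lie left of it.

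Levels of different genes can be compared roughly once divided by exon length. The length used was that of the merged exons of all annotated transcripts, which can exceed that of the transcript expressed. On this scale Acly was the highest of the 38 genes in both genotypes (124 and 66.0 CPM per kb in AE9a-Ddit4+/+ and AE9a-Ddit4-/- cells) and Nr1h3 the lowest (0.119 and 0.624 CPM per kb). Elovl6 moved from place 37 (0.405 CPM per kb) to place 12 (12.6 CPM per kb), Fads2 from 33 to 7 (3.22 and 26.0 CPM per kb) and Scd2 from 14 to 3 (10.9 and 43.3 CPM per kb). Scd2 did not pass, and its AE9a-Ddit4-/- libraries 1 to 3 were at 98.9, 22.2 and 8.70 CPM per kb. Cyp51 moved from place 5 (22.9 CPM per kb) to 23 (4.84 CPM per kb), Idi1 from 7 to 24 (21.2 and 4.57 CPM per kb) and Fdft1 from 17 to 33 (7.86 and 1.86 CPM per kb). Srebf2 was at place 4 and then 2 (26.6 and 55.3 CPM per kb), while Srebf1 was at 2 and then 6 (29.1 and 27.7 CPM per kb). These places rest on group means, and the order of near neighbours was not tested.

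Genes next to these in the pathways moved in both directions. Aacs, which activates acetoacetate for lipid synthesis, was lower (log2 fold change -1.08, adjusted p = 0.0424). Of 14 genes for prenylation, dolichol and ubiquinone, which use the products of Fdps, Rabggtb, the Rab geranylgeranyl transferase subunit, was lower (log2 fold change -2.38, adjusted p = 0.00105) and the others did not pass. Erlin2, a protein of the endoplasmic reticulum membrane from the list for sterol sensing, was higher (1.06, adjusted p = 0.0245).

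Of 14 tested genes for sterol uptake, transport and storage, 5 were higher and 1 lower. The higher ones included Vldlr, a lipoprotein receptor, which went from 0.0633, 0.206 and 0.263 CPM to 3.16, 10.8 and 10.0 CPM (log2 fold change 5.48, adjusted p = 0.00240). Nceh1, which splits cholesteryl esters, and Soat1, which makes them, were both higher (log2 fold change 3.48, adjusted p = 0.00269, and 1.79, adjusted p = 0.0207). Gramd1a, which moves cholesterol from the plasma membrane inward, was higher as well (1.40, adjusted p = 0.00280). Of 26 further fatty acid genes tested, 5 were higher and 10 lower. Of the 4 acyl-CoA synthetases tested, Acsl3 was higher (log2 fold change 4.59, adjusted p = 0.000972) and 3 were lower, namely Acsl5 (-2.21, adjusted p = 0.00425) and, named after their values were seen, Acsl1 (-1.58, adjusted p = 0.00440) and Acsl4 (-0.89, adjusted p = 0.0333). Mid1ip1, a protein that activates acetyl-CoA carboxylase, was lower like Acaca (-1.28, adjusted p = 0.00231). Of 8 further LXR genes 4 were higher, Arl4c with the smallest adjusted p (log2 fold change 2.97, adjusted p = 0.00135). Of 14 fatty acid oxidation genes tested 1 was higher and 3 lower, Acaa2 the most (-1.36, adjusted p = 0.0111). Ppara was at 0 in all 6 libraries.

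How many of the 38 genes passed depended on which libraries were fitted. With 1 library left out at a time, 3 to 15 genes were lower and 4 to 8 were higher. The 15 lower genes came without AE9a-Ddit4+/+ library 2, and the 3 came when either AE9a-Ddit4+/+ library 3 or AE9a-Ddit4-/- library 1 was omitted. Fdft1, Acly, Acaca, Elovl6, Fads1 and Fads2 passed in all 14 alternative fits, and the 18 genes that passed kept their sign in all of them.

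**Figure D5:**
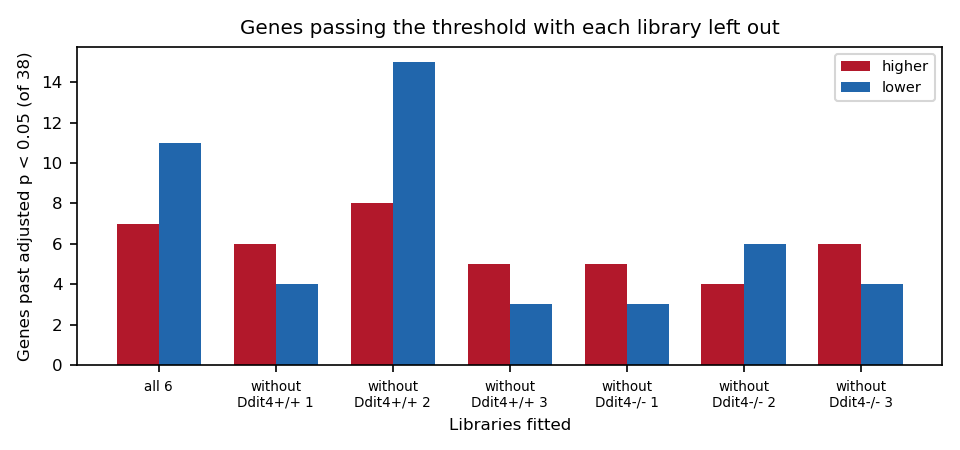
Number of the 38 genes higher (red) or lower (blue) at an adjusted p below 0.05 with all 6 libraries and with each library left out, on an axis from 0. The lower count runs from 3 to 15 and is highest without AE9a-Ddit4+/+ library 2, and the higher count runs from 4 to 8.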

How the data were processed

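The authors deposited 1 table of counts per gene, whole numbers not scaled to a common total, for the 6 libraries. The submitters' processing notes name GRCm38 (mm10). The aligner, the counting tool and the use of strand are not given in the sources used here, and the labels and the study's methods name different library kits (an mRNA kit and a kit for rRNA-depleted RNA). Low counts gathered at multiples of 4 (the genes at 4, 8 or 12 outnumbered those at 2, 6 or 10 by 1.40 to 1.62 times in each library), so a fit with counts divided by 4 was among the alternatives. Groups came from the sample titles. In R 4.3.3, edgeR 4.0.16 was run on all genes (filterByExpr, TMM, glmQLFit and glmQLFTest with robust estimation, genotype as the only term), p values were adjusted over all 18375 genes tested, and a gene is called higher or lower at an adjusted p below 0.05. The code was tested on simulated data. CPM are counts per 1e+06 of the TMM-scaled total. The 38 genes and the further lists were chosen with earlier results of these data known. All 38 are named, and at most 4 genes of each further list, by adjusted p; some of these are not reported here. Exon lengths came from GENCODE M21 (GRCm38) and promoters from RefSeq. Alternatives were other scaling, filters, DESeq2 1.42.0, a replicate block and leaving out each library.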

Additional observations from a re-analysis of the deposited data

How the results depend on the processing

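Against 7 higher and 11 lower genes of the 38, a replicate block (the replicate number as a term) gave 3 higher and 3 lower, and an adjusted p below 0.01 gave 2 higher and 3 lower. Leaving out 1 library at a time gave 4 to 8 higher and 3 to 15 lower, and a median log2 fold change from -0.53 to -0.15. The other scalings and filters, counts divided by 4 and DESeq2 (10 higher, 10 lower) stayed within 1.5 times of both counts. Over all genes, 5535 passed, against 2964 with the block, 2676 at an adjusted p below 0.01 and 7040 with DESeq2; 73.4% of those passing with the block were higher, against 64.3%. Deviations of same-numbered libraries from their group means correlated at -0.24, -0.28 and -0.04, so the numbers did not pair the libraries. Under the block, Scd1 missed the threshold (adjusted p = 0.0555), its only loss among the 14 alternatives. Of the 20 genes that did not pass, 8 passed under 1 or more alternatives. The cause of these moves was not tested beyond the smaller number of libraries or degrees of freedom in some fits. Depth limited Nr1h3 the most, at 0.299 CPM in AE9a-Ddit4+/+ libraries of at least 62245767 counts, and error from depth covers counting only.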
